A study of Mustela putorius furo with 10 samples.

Results

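Peripheral blood mononuclear cells (PBMC) of control ferrets were set against a mixed-tissue reference pool on the same arrays. The 6 arrays of the control group were chosen, of 10 in all, by their label (PBMC, Control). Arrays of the cold-exposed ferrets were not used. The control animals were male ferrets (Mustela putorius furo) aged 3 months and kept at 22 °C, with no genetic modification or drug named in the labels other than the anaesthesia before blood was drawn from the heart. PBMC were isolated on a Ficoll gradient. Each array carried RNA of 1 ferret in Cy3 (green) and a common pool in Cy5 (red), which the labels describe as PBMC mixed with other tissues. The tissues and their shares are not given in the sources used here. The pool was made of Cy5-labelled RNA in equal amounts, after PBMC preparations of low yield had been left out. Ferrets are numbered here by their replicate number.

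PBMC are the lymphocytes (T, B and natural killer cells) and monocytes of the blood. A Ficoll gradient holds back most granulocytes and red cells by their density, and platelets and some of these cells can remain. A pool of tissues is used on arrays so that most probes give signal, and it serves as a shared denominator. A gene expressed by blood cells has a high ratio of PBMC to pool, and a gene of solid tissue a low one. As the pool held PBMC too, the ratio of a gene expressed by PBMC alone has a ceiling set by the share of PBMC RNA in the pool, while low ratios have no such limit. In bulk RNA, fewer cells of a type and less RNA per cell cannot be told apart.

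The measure used throughout is the log2 ratio of Cy3 (PBMC) to Cy5 (pool), after background correction and an intensity-dependent (loess) centring within each array, so that 0 is the level of the typical gene of the same brightness, 1 is 2-fold higher in PBMC and -1 is 2-fold lower. The dye was the same on every array. Dye and RNA source therefore cannot be told apart for any gene, and p-values from limma measure only the spread between the 6 ferrets, not that of the pool, which was made once. Before the centring, Cy3 was brighter than Cy5 on 96.6% to 99.9% of the target spots of an array. The share of spots clearly brighter than background was 27.0% to 54.9% in Cy5 and 50.4% to 63.5% in Cy3, with ferret 5 and then ferret 4 brightest in Cy5. The ratios of 2 arrays correlated across genes with r between 0.835 and 0.940. A gene was called at a Benjamini-Hochberg adjusted p under 0.05 and a log2 ratio of at least 1 in size.

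More genes were far below the pool than far above it. Of 25572 genes tested, 285 (1.11%) were called higher in PBMC and 1881 (7.36%) lower. Ratios ran from -6.99 to 1.93 with a median of 0.02, and only 1% lay above 1.02 whereas 5% lay below -1.26. With no fold threshold, 7808 genes (30.5%) were higher and 7579 (29.6%) lower. On all 6 arrays, 7359 genes (28.8%) were above 0 and 7073 (27.7%) below 0. The share of calls that were higher was 13.2%, and it moved to 37.1% with plain background subtraction, to 64.6% with the scanner software's own processed signals and to 94.7% when each array was centred on its median in place of loess. All 285 genes called higher remained called higher under each of these 3 settings, and 1849, 1815 and 618 of the 1881 genes called lower remained called lower. Centring also moved all genes together. The median of all genes was 1.12 with median centring and -0.62 with centring on the housekeeping list, and each value under these settings includes that shift. The share of all genes called higher was 6.96% with plain subtraction, 20.9% with the processed signals, 52.7% with median centring and 8.97% with housekeeping centring, and the share called lower was 11.8%, 11.5%, 2.93% and 41.1%. Among genes with at least 3 probes, all probes pointed the same way for 280 of 280 called higher and for 1461 of 1466 called lower, against 64.3% of the genes not called. The calls were made on the mean of these same probes with a fold threshold. This difference was therefore largely set by the call rule and carries no weight of its own.

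Among genes with a symbol, FOS, ADGRE3, PILRA, GRK6, SAMHD1 and S100A9 had the highest ratios. FOS, an immediate early transcription factor, was highest with a ratio that ran from 1.31 in ferret 6 over a median of 1.99 to 2.45 in ferret 3. This was 3.80-fold higher in PBMC (log2 ratio 1.93 ± 0.42, SD, n = 6, adjusted p = 4.09e-05). Its spot signal less background lay between 14324 and 29800 in Cy3 and between 132 and 1247 in Cy5. ADGRE3, an adhesion G protein-coupled receptor of myeloid cells, had 1.66 ± 0.48, and PILRA, an inhibitory receptor of myeloid cells, 1.63 ± 0.26. S100A9, a calcium-binding protein abundant in neutrophils and monocytes, ranged from 0.47 to 1.99 with a median of 1.71. Ferret 4 was the low one, and the other ferrets were at 1.51 or above. CD48, a surface protein of most leukocytes, was even across ferrets, from 1.31 to 1.64 (mean 1.52 ± 0.12, adjusted p = 1.65e-06). GRK6, a kinase of G protein-coupled receptors, was as even, at 1.62 ± 0.13. The other genes among the 20 highest with a symbol were SAMHD1, SERPINA1, TRIM22, DOCK2, RIPOR2, UBE2L6, CXCL14, CLEC2D, CD53, FCMR, CLEC5A, SCLY, BIN2 and IL1RN, with ratios between 1.38 and 1.59. SAMHD1, TRIM22 and UBE2L6 are known as interferon-inducible genes, and DOCK2 as the guanine nucleotide exchange factor of leukocyte migration.

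Among genes with a symbol, FABP4, CA3, ADIPOQ, MEST and PRSS16 had the lowest ratios, and some unnamed target sequences lay between them. FABP4, the fatty acid binding protein of adipocytes, was lowest and nearly the same in each ferret, between -7.17 and -6.85 with a median of -6.96. This was 127-fold lower in PBMC (mean -6.99 ± 0.14, SD, n = 6, adjusted p = 1.71e-09). Here the pool was brighter than PBMC already on the spots, with 12490 to 57648 in Cy5 and 2984 to 4689 in Cy3. CA3, the carbonic anhydrase of muscle and fat, had -6.66 ± 0.29, and ADIPOQ, the adipocyte hormone adiponectin, ran from -6.98 to -6.11 with a median of -6.47. MEST, an imprinted gene of growing mesoderm, followed at -5.28 ± 0.72, ahead of PRSS16, a serine protease of the thymic cortex, at -4.99 ± 0.39. CAV1, the coat protein of caveolae, had -4.88 ± 0.56 and COL3A1, a fibrillar collagen, -4.55 ± 0.79. The other genes among the 20 lowest with a symbol were SELENOP, PCK1, CSRP2, PPP1R1A, TSPAN11, MYL1, TGFBR3, RBP4, C1S, SPARC, TGM2, CKM and SLC22A3, between -4.71 and -3.75.

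**Figure D1:**
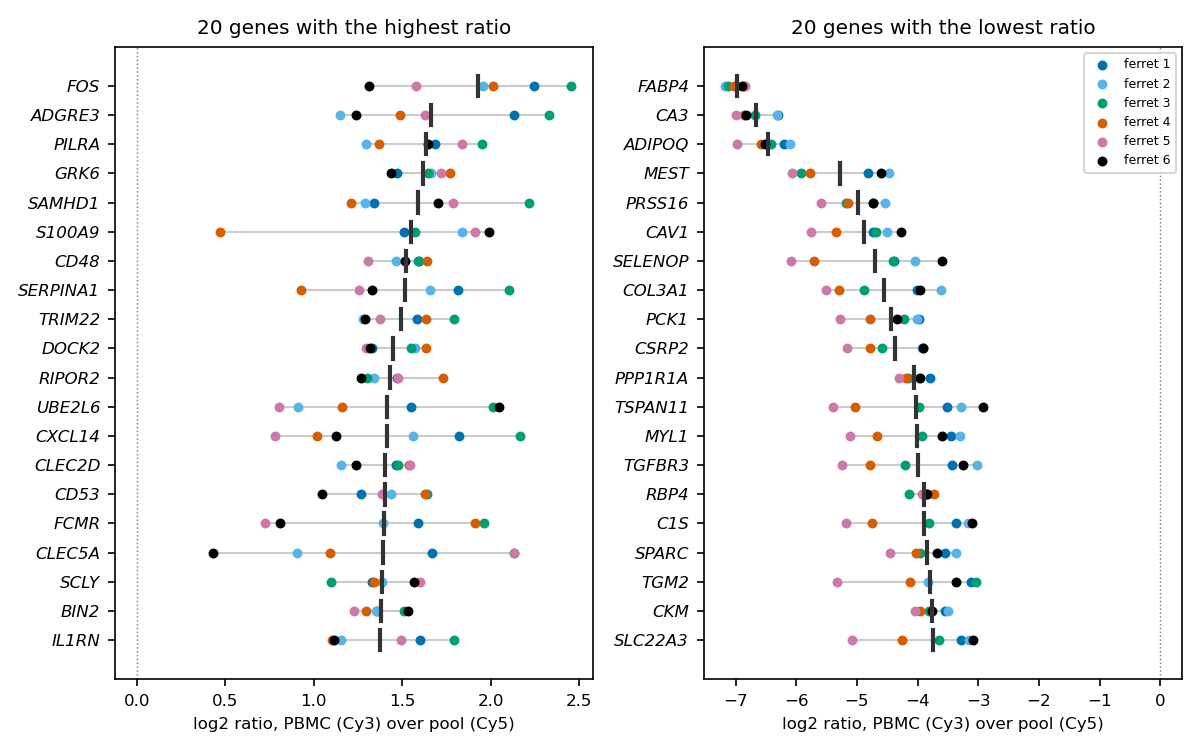
Log2 ratio of PBMC (Cy3) to pool (Cy5) of the 20 genes with the highest (left) and lowest (right) mean ratio among genes with a symbol, with 1 point per ferret and a bar at the mean of 6. The high genes lie between 0.43 and 2.45 and the low genes between -7.17 and -2.93, and ferrets 4 and 5 are the lowest for most of the low genes.

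Few of the low genes were brighter in the pool before centring. Only 32 genes had more Cy5 than Cy3 signal on all 6 arrays, and all 32 were among the 1881 called lower. The 15 of them with a gene symbol were FABP4, CA3, ADIPOQ, MEST, CAV1, SELENOP, COL3A1, TGFBR3, C1S, SLC22A3, PDK4, ABCD2, GHR, F2RL2 and POSTN. For 869 of the 1881 genes (46.2%), Cy3 was brighter on every array and the gene was low only relative to genes of like brightness. CKM, the creatine kinase of muscle, was brighter in Cy3 in 4 ferrets and brighter in Cy5 in ferrets 4 and 5, with a median over ferrets of 2537 in Cy3 and 1615 in Cy5, and the ratio after centring was -3.77 ± 0.21. GAPDH, a glycolytic enzyme often used as a reference gene, had 54355 in Cy3 and 2279 in Cy5, and a ratio after centring of -0.34 ± 0.37 that turned to 0.028 with the processed signals, to 2.55 with median centring and to 0.81 with centring on the housekeeping list (1.43 above the median of all genes in both).

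Markers of the labelled cells were present in the Cy3 channel. CD53, PTPRC and LCP1 (leukocytes), CD3E, CD3G, CD2 and LCK (T cells), CD79A and CD79B (B cells), GZMA and PRF1 (cytotoxic cells), and CD14, CSF1R and LYZ (monocytes) were well above background in Cy3 on all 6 arrays, while MS4A1 was not measured under that name. Of 18 pan-leukocyte genes tested, 9 were called higher and none lower, beside 1.11% of all genes called higher, with a median ratio of 0.98. CD48, DOCK2, CD53, RAC2 (1.22), SELPLG (1.20), ITGB2 (1.11), FLI1 (1.10), VAV1 (1.06) and TRAF3IP3 (1.02) were those called, VAV1 not without ferret 3 (0.96) and TRAF3IP3 not without ferret 4 (0.99). PTPRC, the CD45 antigen of all leukocytes, had 0.94 ± 0.37 and was not called, and CXCR4, a chemokine receptor that many tissues also express, was the only member below 0, at -0.25 ± 0.55.

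In the monocyte list, 5 of 17 genes were called higher and 2 lower, beside 1.11% and 7.36% of all genes, with a list median of 0.71. Those called higher were CSF1R, the receptor of the macrophage growth factor (from 0.99 to 1.67, mean 1.35 ± 0.27), SPI1, the transcription factor PU.1 (1.35 ± 0.23), the cathepsin CTSS (1.21), the proteoglycan VCAN (1.02) and AIF1 (1.00). CD14, the coreceptor for bacterial lipopolysaccharide, had 0.91 ± 0.31 and the lysozyme gene LYZ 0.68 ± 0.47, and neither was called. Without ferret 5 the count was 3, as VCAN (0.88) and AIF1 (0.87) fell under the fold threshold. Those called lower were CX3CR1, the fractalkine receptor (-1.36 ± 0.35), and CD163, the haemoglobin scavenger receptor of tissue macrophages (from -3.28 to -1.27, mean -2.07 ± 0.85). CX3CR1 rested on 2 probes and turned to 1.49 with median centring, 0.38 above all genes, where 14 genes of the list were called higher and 1 lower.

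In the neutrophil list 5 of 11 genes were called higher (S100A9, S100A12, MMP9, CSF3R and PGLYRP1, between 1.12 and 1.55), beside 1.11% of all genes, none was lower, and the median was 0.91. S100A12 was under the fold threshold without ferret 6 (0.99), MMP9 without ferret 4 (0.92) and CSF3R without ferret 1 (0.97) or 3 (0.98), and all 11 genes were called with median centring, beside 52.7% of all genes. S100A9, S100A12 and CSF3R are expressed by monocytes as well. S100A8, a defining gene of the list, was not called at 0.65 ± 0.66, from -0.41 in ferret 4 to 1.30 in ferret 5. Its adjusted p was no longer under 0.05 without ferret 2, 3, 5 or 6. MPO, the peroxidase of early granulocytes, had -0.23 ± 0.35 and LCN2 0.23 ± 0.14. How far neutrophils in the preparations had a part in these ratios was not tested.

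Of 22 T cell genes 1 was called higher and none lower, beside 1.11% and 7.36% of all genes. The list median was 0.23, which became -0.029 when both channels had to be above background on all arrays. Their place depended on the centring: 7 were called higher with the processed signals (20.9% of all genes) and 19 with median centring (52.7%, list median 2.19). With housekeeping centring 7 were higher and 3 lower (8.97% and 41.1% of all genes, list median 0.45). The called gene was CCR7, the chemokine receptor that guides lymphocytes to lymph nodes (from 0.83 to 1.44, mean 1.25 ± 0.23). The genes of the T cell receptor complex were split around 0: CD3G had 0.62 ± 0.24, CD3E 0.23 ± 0.10 and CD3D -0.27 ± 0.10. LCK, the kinase that starts T cell receptor signalling, was at -0.04 ± 0.19, and the coreceptor CD4 at 0.04 ± 0.20. The other coreceptor chains were lower, CD8A at -0.51 ± 0.20 and CD8B at -0.96 ± 0.35, without reaching the threshold of 1. CD8B was called lower without ferret 2 (-1.03) or 6 (-1.01) and turned to 1.67 with median centring, 0.55 above all genes.

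Among B cell genes 1 of 13 was called higher, CD22, an inhibitory receptor of B cells, beside 1.11% of all genes, and the median was 0.60. The count was 7 with plain subtraction (6.96% of all genes), 5 with an offset of 10, 9 with the processed signals (20.9%), 11 with median centring (52.7%) and 3, with 1 lower, with housekeeping centring. CD22 was at 1.25 or above in 5 ferrets and at -0.13 in ferret 6. CD79A (0.80 ± 0.40) and CD79B (0.91 ± 0.62), the signalling chains of the B cell receptor, were not called, and ferret 6 had the lowest value of each. Without ferret 6, 4 of the 13 genes were called higher, CD22, CD79B (1.14), BANK1 (1.10) and FCRL1 (1.01). Of 5 plasma cell genes 2 were called higher, beside 1.11% of all genes. They were JCHAIN, the joining chain of secreted immunoglobulins (1.13 ± 0.67), and MZB1, a chaperone of immunoglobulin folding (1.01 ± 0.38). Ferret 5 was highest for both, at 2.00 and 1.74, and without it neither was called (0.96 and 0.87).

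None of 13 genes of natural killer and cytotoxic cells was called, though all 13 were above 0 and the median was 0.63. Without ferret 2, 4 or 6 the count was 1, GZMA (1.16 and 1.11) or CCL5 (1.02). The count was 5 with plain subtraction (6.96% of all genes), 8 with the processed signals (20.9%) and 10 with median centring (52.7%). With housekeeping centring 7 were higher and 3 lower (8.97% and 41.1% of all genes). With the adjusted p alone, 11 of them passed, beside 30.5% of all genes. The granzyme gene GZMA ranged from 0.01 in ferret 2 to 2.29 in ferret 3, and the perforin gene PRF1 had 0.64 ± 0.42. Of 5 dendritic cell genes 1 was called higher, beside 1.11% of all genes, and the list median was 0.01. It was LAMP3 at 1.03 ± 0.24, which was not called without ferret 1 (0.98) or 4 (0.97).

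Platelet genes differed between ferrets, with an SD of the list mean of 0.552 (leukocyte 0.0882, erythroid 0.266, B cell 0.431, fibroblast 0.589). Of 10 platelet genes, TUBB1, the platelet tubulin, was called higher (from -0.16 in ferret 1 to 2.53 in ferret 6, mean 1.15 ± 0.92), none was lower, and the median was 0.68, which fell to 0.42 without ferret 6 and to 0.37 with array weights. Of all genes 1.11% were called higher. The platelet count was 4 without ferret 1, 3 without ferret 2 and 0 without ferret 6 (1.22% to 1.31% of all genes). It was 6 with plain subtraction (6.96% of all genes), 7 with the processed signals (20.9%) and 9 with median centring (52.7%). PF4 and PPBP were not measured under those names. Of 11 erythroid genes none was called (1, HBM, without ferret 2, 4 or 5). With plain subtraction 3 were called higher and 1 lower (6.96% and 11.8% of all genes), and with the processed signals 6 higher (20.9%). With median centring 7 were higher (52.7%), and with housekeeping centring 3 were higher and 4 lower (8.97% and 41.1%). Their median of 0.34 turned to -0.66 with housekeeping centring, where it was 0.04 under the median of all genes (-0.62). HBM, a haemoglobin subunit, was at 1.99 in ferret 1 and 1.87 in ferret 6 and between 0.07 and 0.97 in the rest. ALAS2, the first enzyme of haem synthesis in red cells, was high in the same animals, at 1.46 and 1.59, against 0.08 to 0.56 in the others.

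**Figure D2:**
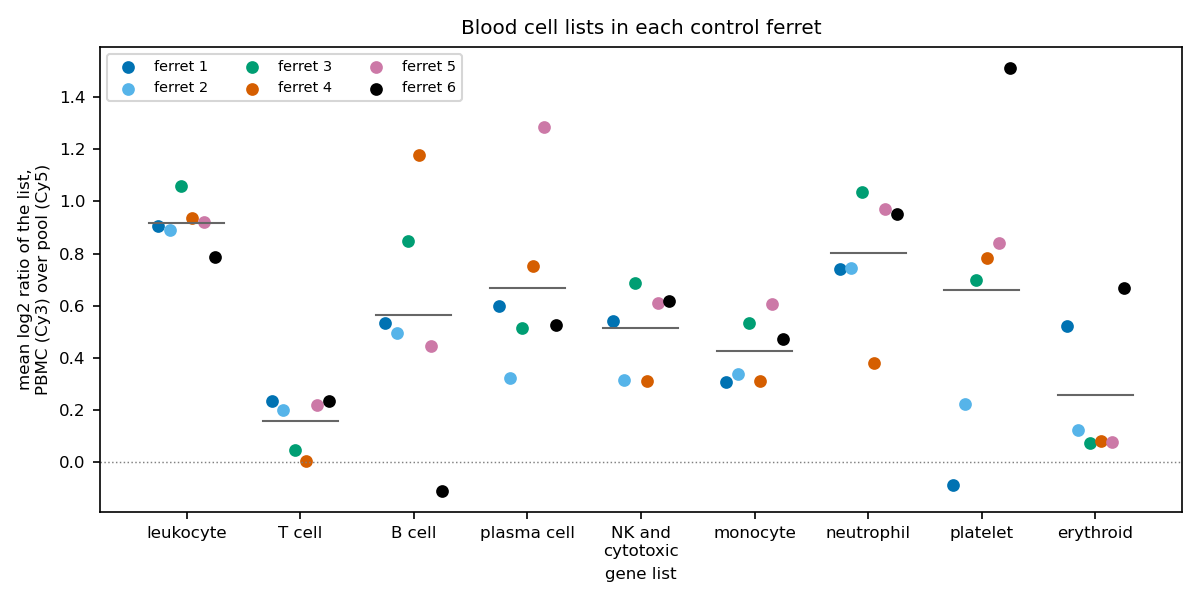
Mean log2 ratio of PBMC to pool over the genes of 9 blood cell lists (x axis), with 1 point per ferret and a line at the mean of 6. The leukocyte means are close together, from 0.78 to 1.06, whereas the platelet means run from -0.09 in ferret 1 to 1.51 in ferret 6 and the B cell means from -0.11 in ferret 6 to 1.18 in ferret 4.

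The platelet mean was -0.09 and 0.22 in ferrets 1 and 2, 0.70 to 0.84 in ferrets 3, 4 and 5, and 1.51 in ferret 6. The erythroid mean was 0.52 in ferret 1 and 0.67 in ferret 6, and 0.07 to 0.12 in the others. The B cell mean was lowest in ferret 6 (-0.11) and highest in ferret 4 (1.18), and the neutrophil mean was lowest in ferret 4 (0.38) with the others at 0.74 or above. T cell means differed little, from 0.00 to 0.23. With 1 array per ferret, differences between animals and between preparations or arrays cannot be told apart.

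All 10 adipocyte genes tested were called lower, with a median of -3.05, beside 7.36% of all genes. With median centring 4 of the 10 were called, with a median of -0.65 beside 1.12 for all genes. Besides FABP4 and ADIPOQ, these were GPD1 (-3.53), the adipogenic transcription factor PPARG (-3.15), the glycerol channel gene AQP7 (-3.12), the lipid droplet proteins CIDEA (-2.97) and CIDEC (-2.75), the lipases PNPLA2 (-2.79) and LIPE (-2.26), and TRARG1 (-2.09). PLIN1 was not measured under that name. Of 4 thermogenic genes tested, PPARGC1A, a coactivator of mitochondrial biogenesis, was called lower at -1.40 ± 0.59. UCP1, the uncoupling protein of brown fat, did not pass the filter on dim probes.

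Connective tissue, muscle and epithelial genes followed. Of 17 fibroblast and matrix genes, 14 were called lower and none higher, beside 7.36% of all genes called lower, with a median of -1.93, and all 17 were below 0. COL3A1, SPARC (-3.84), COL1A2 (-3.59) and MFAP4 (-3.47) were lowest. COL1A1 had -1.86 ± 0.60 and the proteoglycan DCN -2.40 ± 0.91, and COL1A1 turned to 0.091 with median centring, which was 1.02 under the median of all genes. Of 10 striated muscle genes 8 were called lower (4 with median centring, where 2 were higher), with a median of -1.96, led by MYL1, a light chain of fast myosin (-4.01 ± 0.73), and CKM. PYGM and TNNT2, at 0.73 and 0.58, were the members above 0. Of 9 epithelial genes 5 were called lower (2 with median centring, where 1 was higher), with a median of -1.46, among them the keratins KRT5 (-3.57 ± 0.62), KRT8 (-2.97) and KRT18 (-1.46) and the adhesion protein CDH1 (-1.95).

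Vessel and liver genes were mixed. Of 10 endothelial genes 4 were called lower, ENG (-2.17), CLDN5 (-1.57), CDH5 (-1.54) and KDR (-1.16), beside 7.36% of all genes. With plain subtraction or the processed signals 7 were lower, and with median centring none was lower and 2 were higher. The list median of -0.79 turned to 0.43 with median centring, which was 0.69 under the median of all genes. PECAM1, which leukocytes and platelets share with endothelium, was at 0.21 ± 0.36, and VWF, which platelets share, at -0.05 ± 0.16. Of 12 hepatocyte genes tested, the apolipoprotein gene APOA1 (-2.38 ± 0.80), AHSG (-1.19) and PCK1, the gluconeogenic enzyme that fat and kidney express too (-4.44 ± 0.50), were called lower. SERPINA1, the protease inhibitor that monocytes and neutrophils also make, was called higher at 1.51 ± 0.42, so that 3 of the 12 were lower and 1 higher beside 7.36% and 1.11% of all genes. ALB and TTR did not pass the filter on dim probes. The list median was -0.15 and turned to 0.056 with the processed signals.

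Lists for other organs held few measured genes. The median of 3 kidney genes was -0.06. In the smooth muscle list 2 of 4 were called lower, beside 7.36% of all genes. They were ACTA2 at -2.14 and TAGLN at -1.10, the latter not called without ferret 5 at -0.86. None of 3 neuronal, 4 lung and 1 intestinal genes was called. The lung gene SFTPD (-0.96) was called lower without ferret 1 (-1.03), 2 (-1.06) or 6 (-1.04). Plain subtraction gave 1 lung gene higher and 1 lower, and median centring 2 higher. All 3 neuronal genes were called lower with plain subtraction, an offset of 10 or the processed signals, and 2 were called higher with median centring. None of the testis genes passed the filter.

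**Figure D3:**
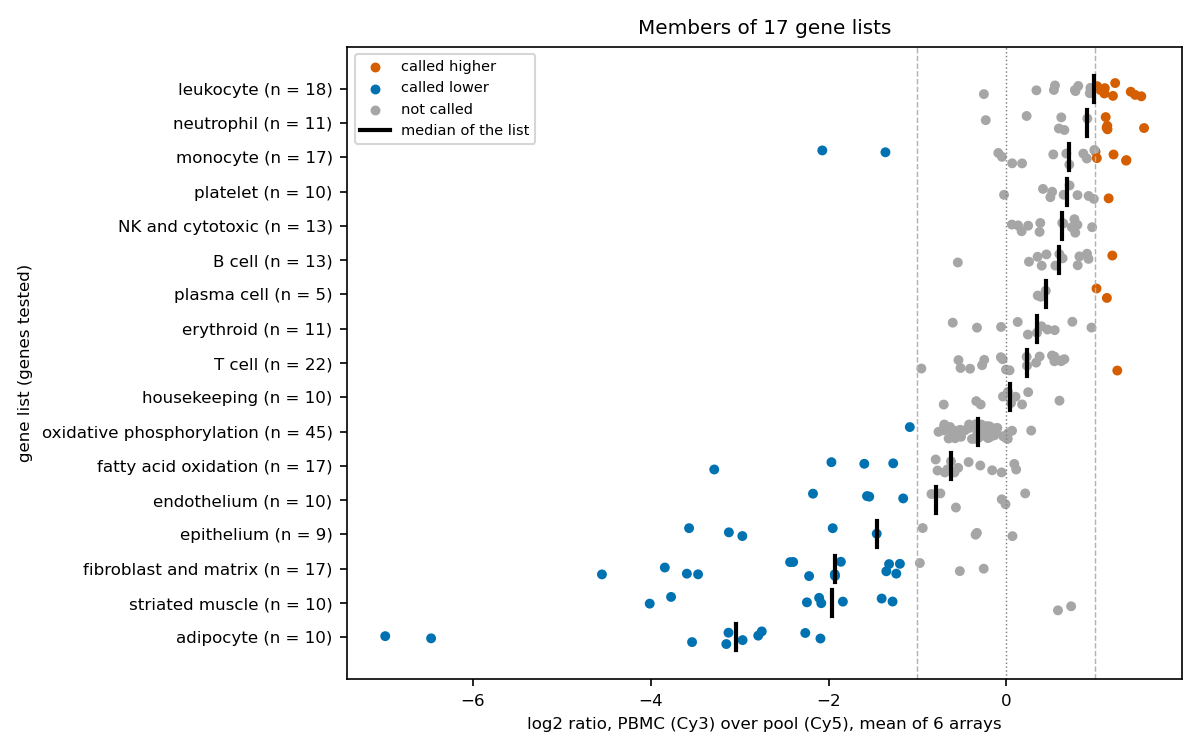
Mean log2 ratio of PBMC to pool over 6 arrays (x axis) for each gene tested in 17 lists, coloured by call, with a black bar at the median of the list and dashed lines at the fold threshold. The list medians run from 0.98 (leukocyte) to -3.05 (adipocyte), while under median centring those of endothelium, fatty acid oxidation and oxidative phosphorylation, and under housekeeping centring those of erythroid genes and oxidative phosphorylation, change sign together with a shift of the median of all genes to 1.12 and -0.62.

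The list of genes of immature lymphocytes was drawn up after PRSS16 had been seen among the lowest genes, so its counts carry no weight of their own. Of 11 genes tested 6 were called lower, beside 7.36% of all genes, with a median of -2.11: PRSS16, the recombinase genes RAG1 (-3.75) and RAG2 (-2.11), PTCRA, the surrogate chain of the pre-T cell receptor (-2.98), DNTT, the terminal transferase that adds bases at receptor gene joins (-2.67), and CCL25, the thymic chemokine (-2.39). TOX and SATB1, which mature T cells keep, were at 0.23 and -0.25.

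Some low genes could only be bounded, since PBMC gave no signal well above background on any array. The bounds hold for the mean over 6 arrays and not for each ferret. Of 103 such genes tested, 63 were at least 2-fold lower in PBMC by that mean. ABCD2, a peroxisomal transporter of fatty acids, was at least 8.98-fold lower and PALMD at least 4.11-fold. LIFR, the receptor of leukaemia inhibitory factor, was at least 4.05-fold lower and VCAM1, the adhesion molecule of activated endothelium, at least 3.21-fold. Single ferrets fell short of these means, with log2 ratios of ABCD2 from -4.88 to -2.20 and of VCAM1 from -2.89 to -0.99. ANO3, ADGRL4, GJB2, VEGFD, CPE and NEB had bounds between 2.64-fold and 2.94-fold. In the other direction 1417 genes had signal in PBMC only, and none of their bounds reached 2-fold. The 10 largest with a symbol, of DIO1, GPR15, RAP1GAP2, FBXO36, GPR82, CCL1, VDR, CD300E, IL23R and CTBS, were 1.28-fold to 1.47-fold. With housekeeping centring all 10 ratios were below 0, from -1.43 to -0.19, beside a median of all genes of -0.62. In all of the 20 genes named here but ABCD2 and VEGFD the dim signal lay above the lowest signal well above background, so that the bound is the measured ratio itself, with the dim signal taken as the most the channel could hold. As Cy5 was dim on most spots, ratios above 0 of dim genes were limited by the floor of the pool channel.

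The brightness of the pool channel moved with the low ratios. Ferrets 4 and 5, with Cy5 well above background on 48.4% and 54.9% of the spots, had the lowest list means for fibroblast (-2.60 and -2.94), striated muscle (-2.08 and -2.49), epithelial (-2.04 and -2.16) and adipocyte genes (-3.84 and -4.03). In the other 4 ferrets, with 27.0% to 35.2%, fibroblast means lay between -2.02 and -1.47 and adipocyte means between -3.68 and -3.33. Leukocyte means did not follow this order. The part of Cy5 brightness in the spread of the low genes was not tested.

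**Figure D4:**
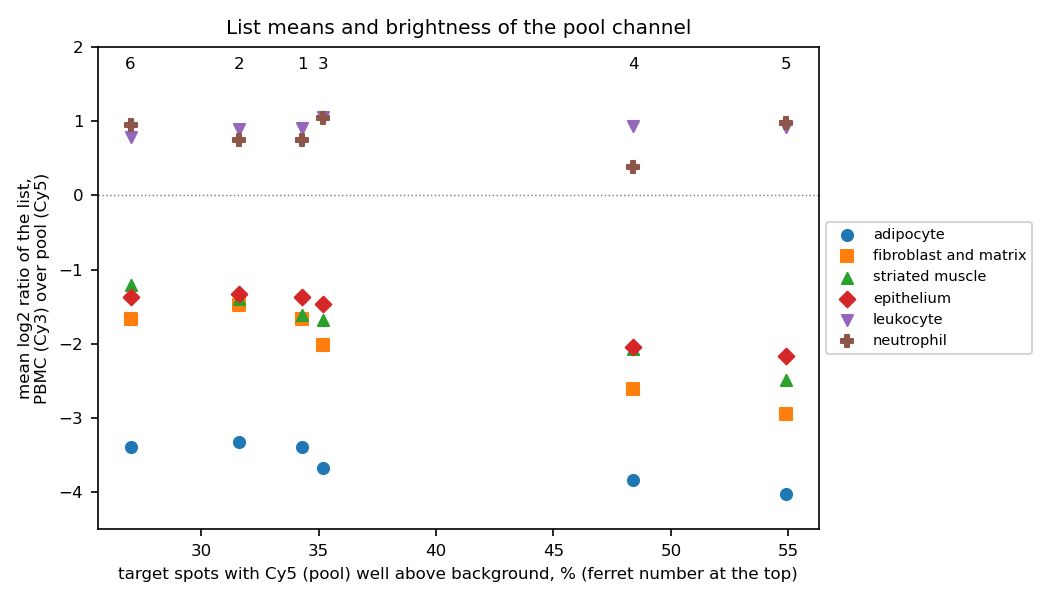
Mean log2 ratio of PBMC to pool over the genes of 6 lists (y axis) against the percentage of target spots with Cy5 well above background (x axis), with 1 point per list and ferret. Ferrets 4 and 5, at 48.4% and 54.9%, have the lowest means of the 4 solid tissue lists, and the leukocyte means stay between 0.78 and 1.06.

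Of 26 chemokine and cytokine receptors 5 were called higher (CSF1R, CCR7, IL10RA at 1.21, CSF3R at 1.13 and CSF2RB at 1.08), and 3 were called lower: CX3CR1 and the interleukin-1 receptors IL1R1 (-1.36 ± 0.72) and IL1R2 (-2.03 ± 0.53). The list median was 0.58. Of all genes tested 1.11% were called higher and 7.36% lower. The receptors called higher numbered 12 with plain subtraction, 15 with the processed signals, 20 with median centring (none lower) and 13, with 6 lower, with housekeeping centring. None of 10 cytokines was called, with LTB, a lymphotoxin subunit, highest at 0.95 ± 0.11 and IL15 lowest at -0.22 ± 0.17. Without ferret 4 IL18 (1.00) was called higher, and without ferret 6 CCL5 (1.02). With plain subtraction 4 cytokines were called higher, with the processed signals 6, with median centring 7, and with housekeeping centring 5, with 3 lower. Of 15 interferon response genes 1 was called, IFI6, which was lower at -2.08 ± 0.56 while the list median was 0.35. Of these 15 genes, 3 were called higher with plain subtraction, 7 with the processed signals, 12 with median centring (none lower) and 5, with 2 lower, with housekeeping centring. IFI6 turned to 0.98 with median centring, 0.13 under the median of all genes. STAT2, a transcription factor of interferon signalling, was at 0.87 ± 0.31 and ISG15, an interferon-induced ubiquitin-like protein, at -0.22 ± 0.79. Of 5 antigen presentation genes, CTSS was called higher, and B2M, the light chain of class I molecules, had 0.37 ± 0.51.

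Immediate early genes, which transcribe within minutes of a stimulus, were listed after FOS had been seen as the highest gene. Of 23 tested, 3 were called higher (FOS, RGS2 at 1.28 and DUSP1 at 1.26) and 1 lower (EGR1 at -1.26 ± 0.69), with a median of 0.47, beside 1.11% and 7.36% of all genes. The count higher was 9 with the processed signals (2 lower), 18 with median centring (none lower) and 11 with housekeeping centring (4 lower). FOSB and ATF3, at -0.23 and -0.91, were not called.

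Of 17 genes of fatty acid oxidation 4 were called lower, among them ACAA2 (-1.97 ± 0.25), HADH (-1.60) and ACADL (-1.27), and none was higher, beside 7.36% of all genes called lower. With median centring 12 were called higher and 1 lower, and the list median of -0.62 turned to 1.48 (0.36 above all genes). CPT1A, the enzyme that admits long-chain fatty acids to mitochondria, was at 0.09 ± 0.49. Of 16 genes of sterol and fatty acid synthesis 5 were called lower, among them ME1 (-2.47), ELOVL6 (-2.40), the desaturase SCD (-2.22) and HMGCS1 (-1.44). The median was -0.28 and turned to 0.95 with median centring (0.16 under all genes), with 8 called higher and 2 lower.

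Of 15 glycolysis genes 2 were called higher, the glucose transporter SLC2A3 (1.20 ± 0.13) and HK3, the hexokinase of leukocytes (1.11 ± 0.39, and 0.98 without ferret 5), and 3 lower, PFKFB3 (-1.85), the muscle aldolase ALDOA (-1.28) and ALDOC (-1.01), beside 1.11% and 7.36% of all genes. The ubiquitous transporter SLC2A1 was at -0.05 ± 0.22 and HK2, the hexokinase of muscle and fat, at -0.63 ± 0.20. ALDOA turned to 1.68 and PFKFB3 to 0.76 with median centring, with 12 of the 15 genes called higher there.

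Of 45 oxidative phosphorylation genes 1 was called lower, ATP5MC3 at -1.09 ± 0.20, and none higher, a share under the 7.36% of all genes. The median of -0.32 turned to 2.24 with median centring, where 43 were called higher, and to 0.50 with housekeeping centring (1.12 above all genes in both). Of 56 ribosomal protein genes 1 was called lower, RPS14 at -1.45 ± 0.40, while 54 were called higher with median centring and 29, with 2 lower, with housekeeping centring. The median of -0.16 turned to values between 0.087 and 2.76 with 5 other settings of background correction and centring. None of 23 cell division genes was called. With median centring 8 were called higher and with housekeeping centring 12 lower. Their median of -0.16 turned to 0.12 with the processed signals and to 0.61 with median centring. None of 10 housekeeping genes was called, while 9 were called higher with median centring and 3, with 1 lower, with housekeeping centring. Their median was 0.04, with YWHAZ highest at 0.60 ± 0.29 and APOO lowest at -0.70 ± 0.26.

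A few genes differed between ferrets far more than the rest. Over 14261 genes with both channels above background on all arrays, the median SD over ferrets was 0.187 and the 95th percentile 0.550. G0S2, an inhibitor of the lipase PNPLA2, had the largest SD among genes with a symbol, 1.28. It was -0.77 and -0.71 in ferrets 1 and 3 and between -3.44 and -2.80 in the others. HCAR2, the niacin receptor, was likewise highest in ferrets 1 and 3 (-0.87 and -0.92) and was between -3.12 and -1.59 in the others.

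RGS18, a regulator of G protein signalling in platelets and myeloid cells, was -0.32 and -0.30 in ferrets 1 and 2, 0.42 in ferret 3, 1.36 and 1.21 in ferrets 4 and 5 and 2.43 in ferret 6. GNG11, a G protein subunit abundant in platelets, ran from -0.76 in ferret 1 to 2.09 in ferret 6. MAPK6 ran from -0.52 to 2.11 and FANCD2, a DNA repair gene, from -0.87 to 1.68, with ferret 1 lowest and ferret 6 highest in both. The Cy3 spot signal less background of FANCD2 lay between 83369 and 312327, beside 153680 to 231444 for B2M. What the FANCD2 probes detect was not tested. PRDX2, the peroxiredoxin of red cells, was 0.80 in ferret 1 and 1.40 in ferret 6, 0.11 in ferret 2, and between -0.90 and -0.72 in the others, with 2 of its 4 probes above 0 and 2 below. The ferrets that were high in PRDX2 were those with the highest erythroid means, and the ferret that was highest in RGS18 and GNG11 had the highest platelet mean. RGS18 and GNG11 belong to the platelet list. The remaining genes among the 15 with a symbol and the largest SD, ECM2, RAG2, COL5A2, POSTN, SMPX, CDC42EP5, PDLIM3 and C7, had means between -3.11 and -1.55, and ferret 5 was the lowest for each.

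**Figure D5:**
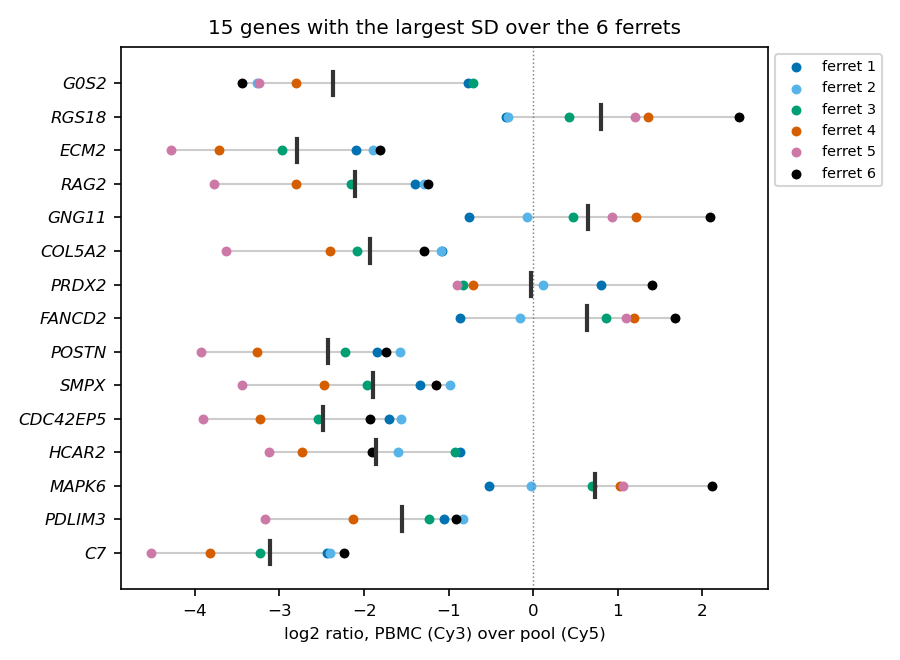
Log2 ratio of PBMC to pool of the 15 genes with a symbol and the largest SD over ferrets, with 1 point per ferret and a bar at the mean of 6. RGS18, GNG11, MAPK6 and FANCD2 are lowest in ferret 1 and highest in ferret 6, and ECM2, RAG2, COL5A2, POSTN, SMPX, CDC42EP5, PDLIM3 and C7 are lowest in ferret 5.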

How the data were processed

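RNA of 6 control ferrets was measured on custom Agilent ferret arrays, with 1 array per ferret on 6 slides, scanned on 1 day. Per the file headers and the labels, the deposited spot intensities (medians of spot and local background for Cy3 and Cy5) were written by Feature Extraction 10.7.3.1. The authors' deposited value table holds log2 values of each array that no longer keep the level against the pool, and its control columns served only for an alternative SD. Authors' comparisons were not used.

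From the intensities, ratios were computed with limma 3.58.1 in R 4.3.3: normexp background correction (offset 50) on all spots, control spots left out, loess (span 0.3, 4 iterations) within arrays, and the sign set to Cy3 over Cy5. Spots with outlier marks were left out (5878 to 6445 per array), spots were averaged per probe and probes per gene. Loess takes most genes of each brightness to be equal in both channels, and the offset shrinks the ratios of dim genes. A probe was kept if at least 0.5 of its spots were well above background in Cy3 or Cy5 on at least 4 arrays. Of 45328 target sequences with 4 probes each, 21104 matched a RefSeq gene (ASM1176430v1.1), 12918 genes in all, and 24224 kept their own identifier. Of 37142 genes on the array 25574 passed, and 2 with missing values were left out. The fit was lmFit and eBayes with an intercept alone, Benjamini-Hochberg adjusted, and was tested on simulated data. An exact sign-flip test over 6 arrays cannot go below p = 0.03125, which single genes of the same sign in all ferrets reached. The number of arrays limits the precision, and each ferret gave 1 sample.

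Bounds ("at least N-fold") set the mean of the bright channel against the higher of the dim signal and the lowest signal well above background, per channel after loess and Aquantile, and are open to dye bias. Genes were named by rule: the 20 highest and 20 lowest ratios with a symbol, the 10 largest bounds in each direction, the defining, 2 highest and 2 lowest members of each list, and the 15 largest SDs. Some genes that these rules name are not reported here. Other names complete small counts or were chosen after their values were seen. The gene lists and the choice of arrays were made with earlier results of these data known, and 2 lists (immature lymphocyte, immediate early) after the values were seen. Background correction, centring, filter, probe summary, array weights, slide position and leaving out each ferret were the alternatives.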

Additional observations from a re-analysis of the deposited data

Results flagged for a closer look

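In 13 of 245 sets of 6 values tested (the named genes and the list means), 1 ferret lay apart by a gap that took most of the range of the 6. Chance alone gives about 1 in 20.

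B cell genes were low in ferret 6. CD22 was -0.13 there against 1.25 to 1.77 in the others, and CD79B -0.24 against 0.84 to 1.47. Ferret 5 was high in plasma cell genes, with MZB1 at 1.74 against 0.70 to 1.06 and PRDM1, the plasma cell regulator BLIMP1, at 0.86 against 0.18 to 0.34.

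Ferret 5 also lay apart in genes that were dim in the pool, with CD300E at 0.92 against 0.20 to 0.41 and CTBS at 0.72 against 0.19 to 0.35. It was low in NKG7, a granule protein of cytotoxic cells (-0.24 against 0.14 to 0.25), and CPT1B, the muscle carnitine palmitoyltransferase (-0.36 against 0.05 to 0.21).

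Ferret 4 was low in S100A9 (0.47 against 1.51 to 1.99) and in the mean of the cell division genes (-0.40 against -0.20 to -0.10), and high in GPR82 (1.09 against 0.08 to 0.44). Ferret 3 was high in STAT2 (1.48 against 0.62 to 0.85) and low in RPL22L1 (0.25 against 0.66 to 0.82). Ferrets 4 and 5 had the brightest Cy5 signal, and its part in these values was not tested.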

How the results depend on the processing

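Every gene called higher with normexp and loess stayed called higher under each other background correction and centring, while counts moved widely. Genes called higher and lower numbered 285 and 1881, and 1780 and 3018 with plain subtraction, 587 and 2734 with an offset of 10, 5344 and 2933 with the processed signals, 13476 and 749 with median centring, 2293 and 10505 with housekeeping centring, and 7808 and 7579 with no fold threshold, an alternative chosen after seeing the data. The median of all genes was 0.02, 0.16 with plain subtraction, 0.44 with the processed signals, 1.12 with median centring and -0.62 with housekeeping centring, so signs under these are relative to that shift. Of all calls, 17.9% were higher with housekeeping centring. Leaving out each ferret gave 247 to 336 genes higher and 1635 to 2041 lower, and array weights 228 and 1645. Not all of the 285 genes stayed called higher in those fits. Of them, 229 to 275 did so with 1 ferret left out, 211 with array weights and 266 with the median over probes. Aquantile changes only brightness and by construction left all ratios as they were.

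Directions of named genes that passed the adjusted p turned as follows. With median centring the values were COL1A1 (0.091), SNAP25 (1.03), GAPDH (2.55), APOO (1.01), ESRP1 (0.92), SYT1 (1.44), GATA3 (1.91), CD8B (1.67), EBF1 (0.86), CX3CR1 (1.49), TCF4 (2.09), CLDN5 (0.84), RPL18 (2.09), RPS14 (1.60), NDUFS4 (1.58), ATP5MC3 (1.74), ALDOA (1.68), PFKFB3 (0.76), ACAA2 (0.69), USP18 (1.23), IFI6 (0.98), UBE2C (0.61) and G0S2 (0.28). With housekeeping centring they were DIO1 (-0.53), GPR15 (-0.98), RAP1GAP2 (-0.51), FBXO36 (-0.19), GPR82 (-1.05), CCL1 (-0.59), VDR (-1.02), CD300E (-1.19), IL23R (-1.08), CTBS (-1.43), SLC4A1 (-0.69), GAPDH (0.81), F9 (-0.019), CCNE1 (-0.76), ITGAL (-0.42), GATA3 (0.17), IRF4 (-1.11), PRDM1 (-0.56), TCF4 (0.35), LCN2 (-0.69), GP9 (-0.59), RPL18 (0.36) and ATP5MC3 (0.0061). With the processed signals GAPDH had 0.028 and USP18 0.71, and USP18, at -0.26 in the reported setting, also turned with plain subtraction (0.31), an offset of 10 (0.033) and the median over probes (0.23). The cause was not tested for single genes.

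List medians turned with median centring for fatty acid oxidation (1.48), sterol and fatty acid synthesis (0.95), kidney (0.43), oxidative phosphorylation (2.24), glycolysis (2.52), lung (0.62), cell division (0.61), endothelium (0.43), ribosomal proteins (2.76) and neuron and glia (1.03). With housekeeping centring they turned for erythroid (-0.66), glycolysis (0.78), oxidative phosphorylation (0.50) and ribosomal proteins (1.02), and with the processed signals for hepatocyte (0.056), glycolysis (0.028), intestine (0.36), kidney (0.67), cell division (0.12) and ribosomal proteins (0.37). Plain subtraction turned kidney (0.041), intestine (0.18) and ribosomal proteins (0.21), an offset of 10 ribosomal proteins (0.087), array weights intestine (0.012), and requiring both channels on all arrays T cell (-0.029) and housekeeping (-0.12). Leaving out ferret 1 turned housekeeping (-0.0011). The dendritic cell median of 0.0050 turned with plain subtraction, an offset of 10, no background subtraction, array weights, the median over probes and without ferret 3 or 5 (-0.11 to -0.0078). Leukocyte, neutrophil, monocyte, adipocyte, fibroblast, striated muscle and epithelial medians kept their sign under every setting run.

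Of the list members called, 16 fell under the fold threshold without 1 of the ferrets: AIF1, ALDOC, CSF2RB, CSF3R, HK3, JCHAIN, LAMP3, LOX, MMP9, MZB1, S100A12, TAGLN, TRAF3IP3, TUBB1, VAV1 and VCAN. Other list members gained a call without 1 ferret, among them PTPRC (1.07 without ferret 2), MPEG1 and CXCR3 (1.05 each without ferret 6) and THY1 (-1.01 without ferret 1). No paired analysis was possible because 1 group of arrays was used, so that replicate numbers had nothing to pair. The ratio within each array already pairs Cy3 with Cy5. The median SD over ferrets was 0.483 in the deposited value table and 0.537 with median centring. Cy5 was well above background on only 27.0% to 54.9% of spots. This may limit what can be seen as higher in PBMC, and its part was not tested.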
